A study of Mus musculus with 12 samples.

Results

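Described here are 6 carriers that move thyroid hormone, prostaglandins and other organic anions across cell membranes, in brain endothelial cells of old and young mice. They are Slco1c1, Slco1a4, Slco2b1, Slco2a1, Slco3a1 and Slc22a8, taken by their symbols, and 6 of 6 were found among the 24015 genes of the table. RNA was sequenced from 12 samples of wild-type C57BL/6 mice, 6 from old animals (19 months) and 6 from young animals (3 months), and the labels name no treatment. Each sample held endothelial cells isolated by flow sorting from hippocampus and cortex, with 2 mice to a pool, so a value is an average over animals, regions and vessel types. Neither the sex of the mice nor the markers of the sort are named in the labels. Nor do they state that every pool came from other animals, and the p-values therefore cover the spread among these 12 samples alone.

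Endothelial cells of the brain seal the vessel wall with tight junctions, and most polar molecules enter or leave the brain through carriers in their membranes. The proteins of the Slco family (organic anion transporting polypeptides) exchange large organic anions for smaller ones without using ATP. In rodents Slco1c1 is the carrier with high affinity for thyroxine at the blood-brain barrier, whereas Slco1a4 takes bile salts, steroid conjugates and many drugs. Slco2b1 carries steroid sulfates and is also known from microglia, Slco2a1 is the prostaglandin transporter, and Slco3a1 is a widely expressed member with prostaglandins among its substrates. Slc22a8 belongs to a separate family and removes organic anions from the brain, at the endothelium and in the choroid plexus.

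Between 25809499 and 40393814 reads per sample fell in genes, and values are normalized counts, that is reads divided by 1 size factor per sample. Adjusted p-values across genes are from limma unless another tool is named. Of the 12 endothelial markers all were detected, with summed normalized counts of 518692 to 659284 in old and 582930 to 668371 in young samples. The mean log2 level of these markers was lower in old samples by 0.19 (14.83 against 15.02, exact permutation p = 0.0108, adjusted p = 0.0433 over 12 marker lists). Pericyte and smooth muscle (mural) markers summed to 1320 to 12531 in old and 3088 to 19363 in young samples, and astrocyte markers to 10445 to 40171 in old and 7032 to 32114 in young. Their mean log2 levels differed, old minus young, by -1.50 for mural markers (exact permutation p = 0.0325) and 1.53 for astrocyte markers (exact permutation p = 0.0368). Neither passed over the 12 lists (adjusted p = 0.0736 each), but a fit with either level as covariate cannot fully separate it from age. Of 14 mural markers 0 were at 0 in every sample, and likewise 0 of 12 astrocyte markers. In old 7, old 9 and young 9 values fell with the GC content of transcripts, with slopes of -0.08, -0.17 and -0.17 log2 units for each 10 percentage points of GC, against -0.02 to 0.13 in the other samples, and the members' folds are also given without them.

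Slco1c1 and Slco1a4 lie close together on chromosome 6 in a cluster of Slco1 genes, with Slco1b2 and Gm5724 between them in the RefSeq annotation. Their promoters are printed because the levels of these genes moved together from sample to sample, and beside them those of Slc22a8, which moved with them, and of Slco2b1, which fell with age. Each window runs from 250 bases before to 50 bases after a RefSeq start (build GRCm38.p6; the submitters' notes name mm9, so these coordinates do not apply to the reads). For Slco2b1 the most upstream of 3 RefSeq starts is shown; the data do not tell which start was used. Capitals mark the longest run that the windows of Slco1c1 and Slco1a4 share on the same strand.
Slco1c1 (chr6:141524104-141524403, + strand): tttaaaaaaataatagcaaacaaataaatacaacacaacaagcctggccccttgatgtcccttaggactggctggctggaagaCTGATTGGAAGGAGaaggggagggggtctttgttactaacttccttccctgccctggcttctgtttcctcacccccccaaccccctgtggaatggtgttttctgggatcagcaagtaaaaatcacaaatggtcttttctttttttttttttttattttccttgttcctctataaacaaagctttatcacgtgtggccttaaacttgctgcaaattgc
Slco1a4 (chr6:141856171-141856470, - strand): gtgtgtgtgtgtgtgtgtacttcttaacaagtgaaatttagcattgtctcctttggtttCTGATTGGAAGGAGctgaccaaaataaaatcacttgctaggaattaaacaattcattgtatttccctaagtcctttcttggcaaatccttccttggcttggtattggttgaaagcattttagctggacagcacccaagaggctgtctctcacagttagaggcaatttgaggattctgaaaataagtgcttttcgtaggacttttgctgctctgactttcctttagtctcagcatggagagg
Slc22a8 (chr19:8592932-8593231, + strand): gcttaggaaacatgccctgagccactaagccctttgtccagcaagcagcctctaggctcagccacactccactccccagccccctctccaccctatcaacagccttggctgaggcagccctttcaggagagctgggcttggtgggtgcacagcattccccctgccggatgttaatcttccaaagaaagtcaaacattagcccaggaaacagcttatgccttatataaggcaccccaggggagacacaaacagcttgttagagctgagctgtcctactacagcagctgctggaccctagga
Slco2b1 (chr7:99711291-99711590, - strand): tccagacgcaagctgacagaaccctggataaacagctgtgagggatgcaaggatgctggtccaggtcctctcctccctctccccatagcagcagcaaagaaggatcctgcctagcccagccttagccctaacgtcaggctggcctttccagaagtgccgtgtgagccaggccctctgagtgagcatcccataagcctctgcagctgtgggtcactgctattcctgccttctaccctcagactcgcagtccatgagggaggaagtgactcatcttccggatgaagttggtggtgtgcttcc

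The shared run, CTGATTGGAAGGAG, is 14 bases long and begins at position -167 in Slco1c1 and at -191 in Slco1a4, counted from the start. Read on either strand, it was found in 2 of 32851 promoter windows of the table, 0.00609%, and these 2 are the windows of Slco1c1 and Slco1a4. It was picked as the longest run that they share, so its presence in both was fixed by that choice. The part of the run in their shared movement was not tested. Its letters include ATTGG, the reverse of the CCAAT box, which is present on either strand in 37.4% of all windows and, apart from these, in 1 of the 3 windows of Slco2b1. Any other pair of members shared at most 11 bases on the same strand, though with 1 strand reversed a Slco2b1 window and that of Slco2a1 also shared 14. Motifs were searched on both strands in the exact letters given here, and other forms were not searched. The nuclear receptor half-site AGGTCA and the xenobiotic response core GCGTG were in 0 of the windows of the 5 members with a RefSeq entry. They were in 16.3% and 32.4% of all windows. The count was also 0 for the TCF/LEF letters CTTTGAT and the FOX letters GTAAACA (3.73% and 3.65% of all windows). Similar letters were present, CTTTGTT and ATAAACA in the window of Slco1c1 and ATAAACA in that printed for Slco2b1. The ETS core AGGAAG occurred once each in the windows of Slco1c1, Slco1a4 and Slco2a1 and in 2 of the 3 of Slco2b1 (35.4% of all windows). The E-box CACGTG was in that of Slco1c1 at position 19, after the start (7.15%). TATAAA, the letters of the TATA box, was in that of Slco1c1 at position 2, also after the start, and in that of Slco2a1 at -29 (13.6%). The window of Slc22a8 holds the similar letters TATATAAG before its start, a form that was not searched. These are matches of letters and no binding was measured.

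Per kilobase of the longest coding transcript, Slco1c1 and Slco1a4 stood at the top in both ages and could not be ordered. In young samples Slco1c1 had 35171 ± 4918 and Slco1a4 35375 ± 7417 normalized counts per kilobase (SD, n = 6 each), and in old samples 27509 ± 4912 and 26534 ± 3414. Slc22a8 followed with 10706 ± 1192 in young and 9995 ± 1267 in old, then Slco2b1 with 6208 ± 717 and 3328 ± 945. Slco2a1 (123 ± 32.7 in young, 80.2 ± 24.9 in old) and Slco3a1 (40.0 ± 22.1 and 24.4 ± 8.78) were far lower. From Slc22a8 downwards the ranges of neighbours in this order did not overlap within an age. With the coding length in place of the transcript length, Slco1a4 (67282 ± 14107 in young) stood above Slco1c1 (52109 ± 7286), but their ranges overlapped. Together the 6 genes took 0.627% to 0.886% of all values in old and 0.822% to 1.24% in young samples.

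Slco2b1 was the member that fell with age past the threshold. Its normalized count ran from 8903 over a median of 13554 to 20841 in old samples, and from 23979 over 27045 to 32042 in young ones. Every old sample lay below every young one, with old 7 lowest and young 4 highest. The mean was 14579 ± 4140 in old and 27196 ± 3140 in young ones (SD, n = 6 per age), a log2 fold of -0.94 (SE 0.16, 95% interval -1.29 to -0.59) that passed in limma (adjusted p = 0.00313 over 12777 genes) and in edgeR (log2 fold -0.89, adjusted p = 0.00543). Thus 1 of the 6 members was called, as lower, and 0 rose, where 6.94% of all genes tested were called, 3.21% lower and 3.73% higher. edgeR also called 1 of the 6, against 6.05% of its genes, and DESeq2 called 2, Slco2b1 and Slco1a4, against 10.2% of its genes. Groups without overlap and lower in old were seen for 1 of the 6 members, against 2.11% of all genes tested (4.29% in either direction). In a bulk sample, fewer cells of a type and less RNA per cell cannot be told apart.

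**Figure D1:**
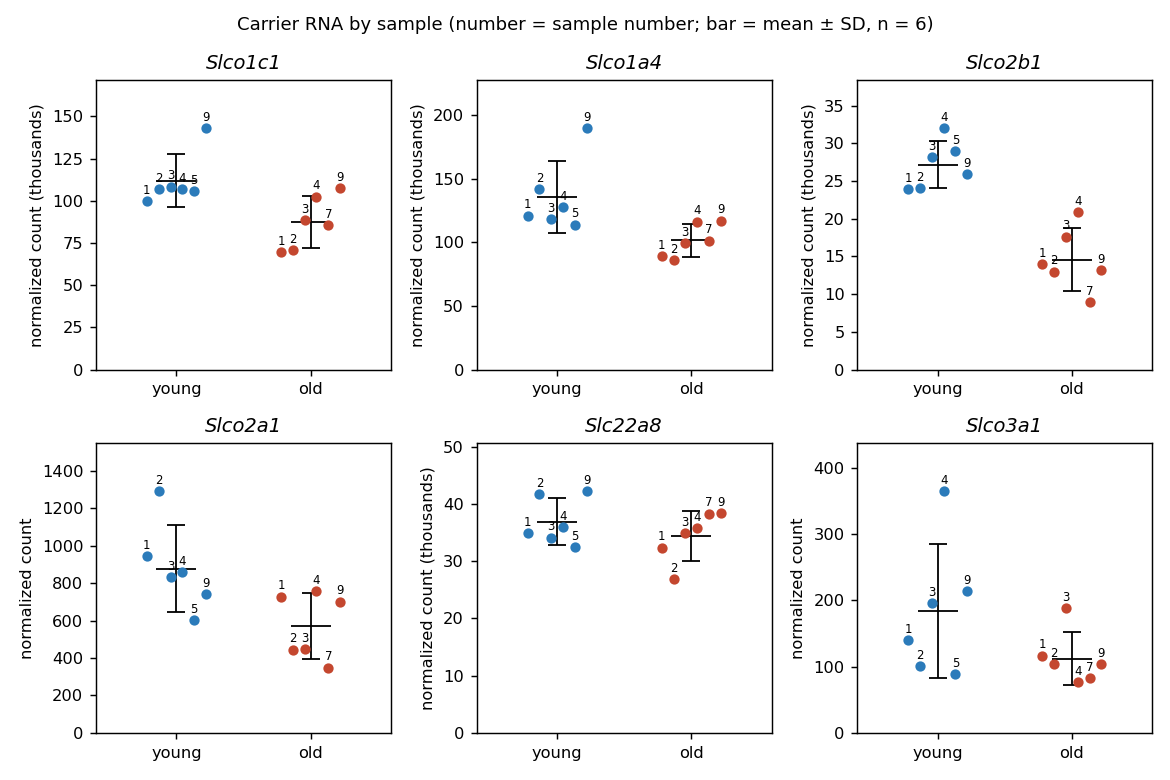
Normalized count of each carrier (vertical axis, from 0, rescaled where the axis says so) in the 6 young (blue) and 6 old (red) samples, each point labelled with its sample number, with mean and SD as bars. Slco2b1 has no overlap between the ages (8903 to 20841 in old, 23979 to 32042 in young), while the other 5 carriers overlap.

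The fall of Slco2b1 was set against the levels of other cells in the same samples. Scaled by the endothelial markers, the log2 fold in limma was -0.75 (adjusted p = 0.00268), where the median over all genes was 0.18. Capillary markers summed to 187079 to 287125 in old and 281847 to 361246 in young samples (mean log2 difference -0.59, exact permutation p = 0.00216, adjusted p = 0.013 over the lists). The mean log2 level of 10 venous markers differed by -0.94 with the same p, but their median log2 fold was -0.43 and their sums overlapped (44439 to 68174 in old, 47582 to 68749 in young). Aplnr, a venous marker at 0 to 83.8 in old and 399 to 917 in young samples, stood far from the other members of that list. Of the 10 venous markers 3 were called lower and 0 higher, where 6.94% of all genes tested were called. Beside Aplnr these were Slc38a5 (log2 fold -0.69, adjusted p = 0.00347) and Icam1 (-0.87, adjusted p = 0.0199). Of 8 capillary markers 3 were called lower and 0 higher. Arterial markers were higher in old samples by a mean log2 difference of 0.33 (exact permutation p = 0.0368, adjusted p = 0.0736), with 3 of 10 called higher and 0 lower. The part of these markers in the fall of Slco2b1 was not tested. Without old 7, old 9 and young 9 the log2 fold of Slco2b1 was -0.76 (adjusted p = 0.00942). Leaving out each sample in turn gave log2 folds from -1.05 to -0.81 (adjusted p from 0.00106 to 0.0106). Adding the mural marker score (the mean log2 level of pericyte and smooth muscle markers) as covariate ended the call (log2 fold -0.85, adjusted p = 0.0568), while the astrocyte score as covariate gave -0.86 (adjusted p = 0.0491). Markers of microglia, which also use Slco2b1, were low: summed over 13 markers the normalized count was 1516 to 2308 in old and 1347 to 1690 in young samples, while Aif1, Mrc1 and Tmem119 were at 0 in some samples of each age. With the microglial score as a covariate the log2 fold of Slco2b1 was -0.96 (adjusted p = 0.00384).

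Within an age, Slco2b1 varied with the endothelial markers (Pearson r = 0.85 over 12 deviations from the age means) and less with the capillary markers (r = 0.67). The genes whose deviations were most like those of Slco2b1, among 10355 genes, were Mmd (r = 0.97), N4bp1 (r = 0.96) and Tle1 (r = 0.96), a Groucho-type corepressor. Mmd itself fell, from 1900 ± 219 in young to 1361 ± 280 in old samples (log2 fold -0.50, adjusted p = 0.0393, edgeR adjusted p = 0.0539). N4bp1 (log2 fold -0.13, adjusted p = 0.624) and Tle1 (-0.28, adjusted p = 0.234) did not pass. These correlations are the highest of many, and all samples of the table share the same libraries and scaling. About 8.31% of the stretches of 50 bases in the longest Slco2b1 transcript also occur in transcripts annotated to Gm15635 or Gm34280. Neither symbol is among the genes of the table, so no reads were counted under those names. Reads from those stretches still cannot be assigned to Slco2b1 with certainty.

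Slco1c1, the thyroxine carrier, was lower in most old samples but did not pass the threshold. It ran from 69731 over a median of 86980 to 107539 in old samples and from 99591 over 106830 to 143052 in young ones. Of the 6 old samples 4 lay below every young one, while old 4 and old 9 lay among them. The means were 87425 ± 15612 and 111773 ± 15628 (SD, n = 6 per age), giving a fold of 0.78, 95% interval 0.64 to 0.95 (log2 fold -0.36, SE 0.14, limma adjusted p = 0.119, edgeR adjusted p = 0.125). Slco1a4, the bile salt and drug carrier, ran from 86245 over 100258 to 116938 in old and from 113778 over 124185 to 189657 in young samples, again with 4 old samples below every young one. Its means were 101438 ± 13052 and 135237 ± 28355, a fold of 0.76 (interval 0.61 to 0.93, log2 fold -0.40, SE 0.14, limma adjusted p = 0.0971, edgeR adjusted p = 0.0834). With DESeq2 Slco1a4 did pass (log2 fold -0.41, adjusted p = 0.0296), as it did with a term for old 7, old 9 and young 9 (-0.46, adjusted p = 0.0225). Slco1c1 passed with that term too (-0.42, adjusted p = 0.0331).

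At an unadjusted p under 0.05 in limma, 4 of the 6 members were found (Slco1c1, Slco1a4, Slco2b1 and Slco2a1), all lower in old samples, where 23.8% of all genes tested had such a p and 12.1% had it and were lower. All 6 members had a log2 fold below 0, though that of Slc22a8 turned above 0 under quantile normalization and endothelial scaling and that of Slco3a1 with the mural score, against 51.1% of all genes tested, and the median of the members was -0.51 beside -0.01 over all genes. The members were chosen with earlier results of these data known, so these shares only describe them. Slco1c1, Slco1a4 and Slc22a8 also moved together from sample to sample and are not separate counts. Leaving out young 9, the highest young sample for both Slco1c1 and Slco1a4, gave log2 folds of -0.29 and -0.30 (adjusted p = 0.173 and 0.131). Without old 7, old 9 and young 9 they were -0.37 and -0.36 (adjusted p = 0.0945 and 0.0899). Scaled by the endothelial markers, the folds of Slco1c1 and Slco1a4 were -0.17 and -0.21 (adjusted p = 0.482 and 0.415). Under quantile normalization that of Slco1c1 was -0.20 (adjusted p = 0.393).

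**Figure D2:**
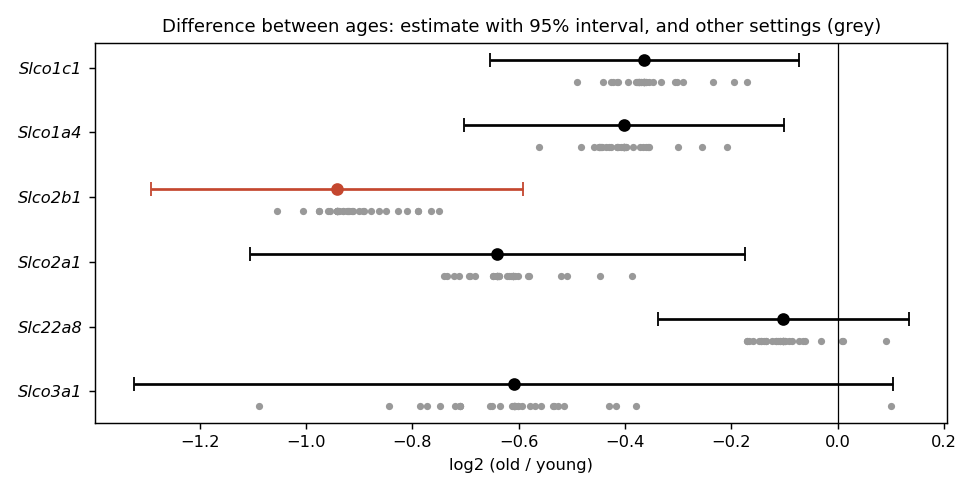
Log2 difference of old against young for each carrier (horizontal axis), with the limma estimate and its 95% interval above (red where adjusted p was under 0.05, otherwise black) and the estimates under the other settings as grey points below it. Slco2b1 lies between -1.05 and -0.75 under the other settings, whereas the points of Slc22a8 and Slco3a1 reach across 0.

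Slco1c1 and Slco1a4 moved together from sample to sample. Their deviations from the age means had a Pearson r of 0.89 and a Spearman rho of 0.86 over the 12 samples, and r was 0.85 without young 9 and 0.80 without old 7, old 9 and young 9. The log2 ratio of Slco1c1 to Slco1a4 was -0.22 ± 0.08 in old and -0.26 ± 0.13 in young ones (SD, n = 6 per age), a difference of 0.04 (exact permutation p = 0.552). Slc22a8 followed both, with r = 0.81 to Slco1a4 and r = 0.71 to Slco1c1. Without those 3 samples these were 0.87 and 0.59. The r of Slco2b1 to these 3 genes was between -0.17 and 0.22 over all samples but 0.86 to Slco1c1, 0.55 to Slco1a4 and 0.38 to Slc22a8 without those 3 samples, so its lack of likeness to Slco1c1 rests on them. In old 9 and young 9, which have low GC slopes, Slco1c1 and Slco1a4 lay above their age means, and in old 1, which has the highest slope, below them. Old 7, whose slope is also low, lay at its age mean (deviations of -0.01 and 0.01), and old 4, with a slope of 0.02, lay nearly as high as old 9 (0.25 and 0.21 against 0.32 and 0.22). Over the 12 deviations r with the GC slope was -0.78 for Slco1c1, -0.75 for Slco1a4 and -0.63 for Slc22a8. The transcripts of Slco1c1 and Slco1a4 hold 43.1% and 40.3% GC, that of Slc22a8 50.3%, and the median of the genes tested was 50.2%. The part of this slope in their shared movement was not tested.

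**Figure D3:**
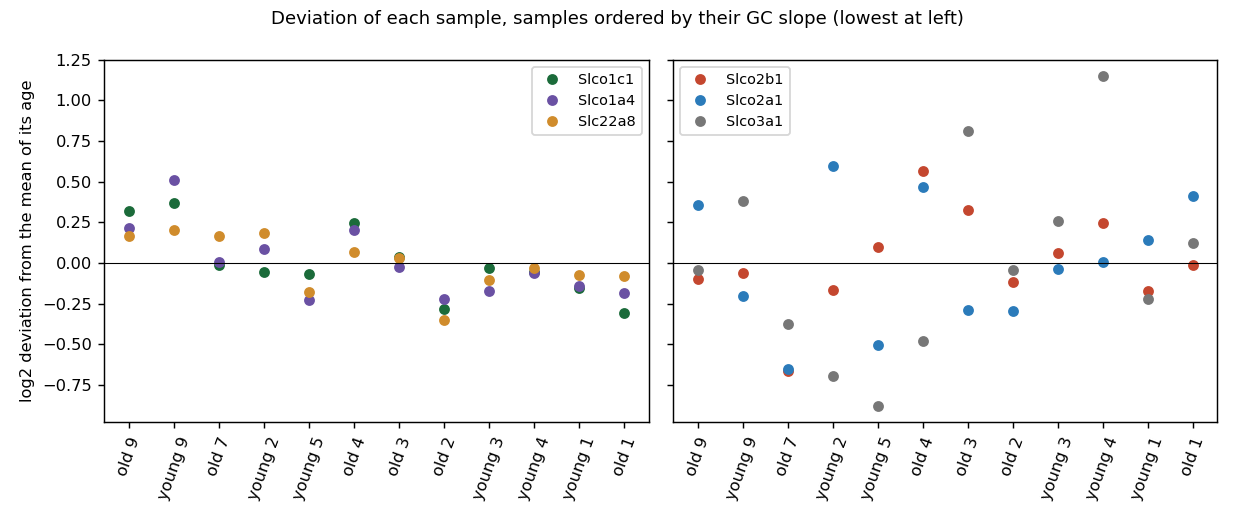
Deviation of each sample from the mean of its age on the log2 scale (vertical axis) for 3 carriers in each panel, with samples ordered by their GC slope from lowest (left) to highest (right). Slco1c1, Slco1a4 and Slc22a8 lie close to each other in most samples and above 0 in old 9 and young 9, while Slco2b1, Slco2a1 and Slco3a1 scatter without such an order.

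The genes most like these 3 within an age were sought with the members left out. For Slco1c1 they were Chordc1, a partner of the chaperone Hsp90 (r = 0.96), the chaperonin subunit Tcp1 (r = 0.95) and the BH3 protein Pmaip1 (r = 0.94). Pmaip1 lay higher in old samples (log2 fold 0.44, adjusted p = 0.082) and Chordc1 lower (-0.61, adjusted p = 0.113), and neither passed. For Slco1a4 they were Zfp119b (r = 0.94), A930006K02Rik (r = 0.91) and the RNA-binding Fxr1 (r = 0.91). For Slc22a8 the nearest gene was Car4 (r = 0.94), a carbonic anhydrase on the capillary surface, followed by Zfp207 (r = 0.91) and Zfp869 (r = 0.91).

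Slc22a8, the organic anion exporter, showed the smallest difference of the 6 members. It ran from 26800 over a median of 35345 to 38359 in old and from 32422 over 35394 to 42186 in young samples, with 2 old samples below every young one and the other 4 among them. The means were 34421 ± 4363 and 36873 ± 4107 (SD, n = 6 per age), giving a fold of 0.93 and a 95% interval of 0.79 to 1.10 (limma adjusted p = 0.608). The direction was not stable: the log2 fold was -0.10, but 0.01 under quantile normalization and 0.09 when scaled by the endothelial markers. Without old 7, old 9 and young 9 it was -0.15 (adjusted p = 0.481).

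Ratios within a sample do not depend on the scaling, and some pairs with Slc22a8 differed between the ages. Of 15 pairs compared, 2 differed between the ages after adjustment over the pairs, a comparison chosen after the data were seen. The log2 ratio of Slco2b1 to Slc22a8 was -1.28 ± 0.48 in old and -0.44 ± 0.28 in young samples (difference -0.84, exact permutation p = 0.00433, adjusted p = 0.0325, ranges overlapping). The log2 ratio of Slco1a4 to Slc22a8 was 1.56 ± 0.12 in old and 1.86 ± 0.15 in young samples (difference -0.30, exact permutation p = 0.00216, the smallest the 924 arrangements allow, adjusted p = 0.0325), with no overlap between the ages. The ratio of Slco1c1 to Slco2b1 was higher in old samples by 0.58 and did not pass (exact permutation p = 0.0108, adjusted p = 0.0541). Without old 7, old 9 and young 9 the differences were -0.62 for Slco2b1 to Slc22a8 (exact permutation p = 0.0238), -0.21 for Slco1a4 to Slc22a8 (exact permutation p = 0.00794, the smallest that 4 against 5 samples allow) and 0.40 for Slco1c1 to Slco2b1 (exact permutation p = 0.0159). None of the 15 pairs then passed the adjustment (the lowest adjusted p was 0.119). With 126 arrangements, 1 pair alone at the smallest p cannot pass over 15 pairs, so this does not decide whether the differences held.

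Slco2a1, the prostaglandin transporter, ran from 348 over a median of 574 to 759 in old and from 603 over 844 to 1289 in young samples. Old 7 was lowest and young 2 highest, and 3 old samples lay below every young one. The means were 571 ± 178 and 877 ± 233 (SD, n = 6 per age), giving a fold of 0.64 and a 95% interval of 0.46 to 0.89 (log2 fold -0.64, limma adjusted p = 0.089, edgeR adjusted p = 0.118). Without old 7, old 9 and young 9 the log2 fold was -0.61 (adjusted p = 0.138), and with the astrocyte score as covariate it was -0.39 (adjusted p = 0.603). These levels rest on 3673 reads over the old and 5058 over the young samples. The genes most like Slco2a1 within an age were Mogs, a glucosidase of the endoplasmic reticulum (r = 0.95), Ube2g1 (r = 0.88) and the lysosomal sulfatase Arsa (r = 0.87).

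Slco3a1 was the member with the lowest level and the widest spread relative to its mean. It ran from 76.4 over a median of 104 to 188 in old and from 88.6 over 168 to 364 in young samples, with overlap. The means were 112 ± 40.3 and 184 ± 101 (SD, n = 6 per age), giving a fold of 0.66 and a 95% interval of 0.40 to 1.08 (log2 fold -0.61, limma adjusted p = 0.283). The genes most like it within an age were the pericyte markers Rgs5 (r = 0.91) and Higd1b (r = 0.86), with the receptor Lgr4 between them (r = 0.88). Its deviations had r = 0.76 with the mural marker score and r = 0.78 with the fibroblast score. Young 4, highest in Slco3a1 at 364, was highest in summed mural markers at 19363, and old 3 was the highest old sample in both, at 188 and 12531. Fitted with the mural score, the log2 fold was 0.10 (adjusted p = 0.946), and without young 4 it was -0.38 (adjusted p = 0.529). Without old 7, old 9 and young 9 it was -0.43 (adjusted p = 0.597).

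**Figure D4:**
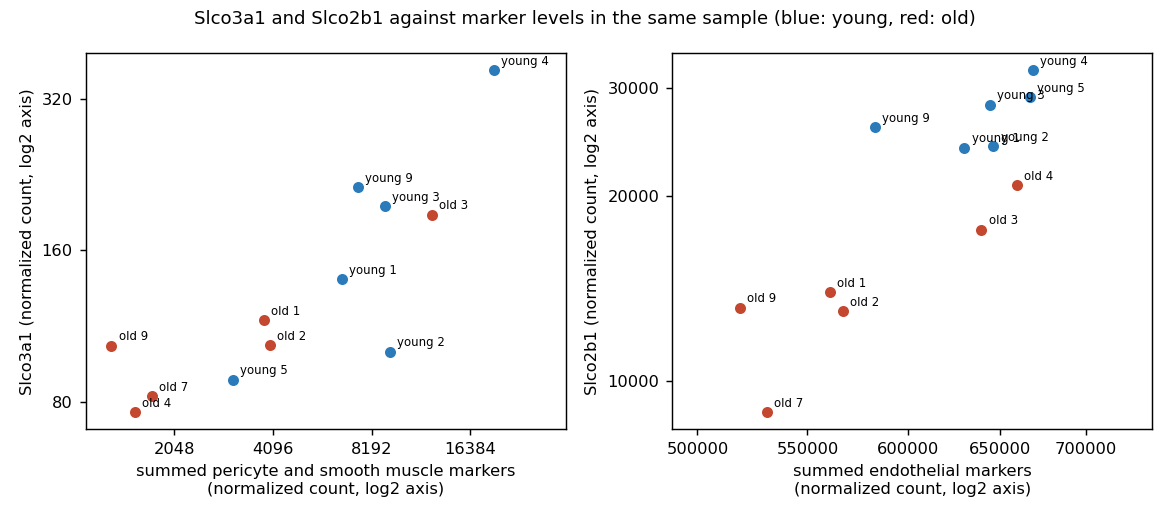
Left, Slco3a1 against the summed pericyte and smooth muscle markers, and right, Slco2b1 against the summed endothelial markers, each as normalized counts on log2 axes, 1 point per sample (blue young, red old). Slco3a1 is highest in young 4, where the mural markers sum to 19363. Slco2b1 is lowest in old 7 and highest in young 4, which also has the highest endothelial sum, 668371.

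Counts of calls in the lists that follow stand beside the 6.94% called among all genes tested, and 1 call in a list of 10 to 16 genes is about the number that share gives. Of 10 other Slco genes 6 were listed at 0 in every sample, namely Slco1a1, Slco1a6, Slco4c1, Slco6b1, Slco6c1 and Slco6d1. A value of 0 in every sample may mean that a gene was not counted, since Akr1b3, an enzyme of broad expression, and the globin genes Hbb-b1, Hbb-b2, Hba-a1 and Hba-a2 are listed at 0 as well, while the erythroid gene Alas2 reached 9108. Slco1a5, a close relative of Slco1a4, reached 5.52 to 53.8 in old and 8.06 to 43.0 in young samples (log2 fold -0.06, limma adjusted p = 0.968), and its direction was reversed in edgeR (log2 fold 0.18). Slco1b2, Slco4a1 and Slco5a1 had 69, 69 and 64 reads over all 12 samples and were not tested. Reads shared among the Slco1a genes could be split between them: 2.73% of the stretches of 50 bases in the longest Slco1a4 transcript occur in transcripts of other genes, against 0% for Slco1c1 and Slco3a1. In the Slc22 family 7 of 24 other genes could be tested, of which 2 rose and 1 fell (median log2 fold 0.58). The carnitine carrier Slc22a5 fell from 1904 ± 236 to 1336 ± 184 (adjusted p = 0.0164), and Slc22a18 rose from 218 ± 43.1 to 340.5 ± 28.8 (adjusted p = 0.0257), both without overlap. Slc22a17, a lipocalin receptor, rose from 421 ± 180 to 781 ± 269 (adjusted p = 0.04), though not in edgeR (adjusted p = 0.0618).

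Among the other proteins that carry or bind thyroid hormone, 8 of 10 were tested, of which 0 rose and 1 fell (median log2 fold -0.16). The one that fell was Slc7a8, an amino acid exchanger that also takes iodothyronines, from 180 ± 58.5 to 57.9 ± 17.8 (SD, n = 6 each, log2 fold -1.61, adjusted p = 0.00379, edgeR adjusted p = 0.00528), without overlap. Ttr, a thyroxine-binding protein made by the choroid plexus and named after its values were seen, was at 0 in some samples of each age and reached 3076 in an old and 907 in a young one.

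Of the deiodinases, receptors and coregulators, 16 of 20 genes were tested, and 0 rose and 1 fell (median log2 fold -0.21). Rxra, the partner receptor of the thyroid hormone receptors, fell from 2164 ± 152 to 1523 ± 361 (adjusted p = 0.0365), with no overlap but not in edgeR (adjusted p = 0.0528). The deiodinases Dio1 and Dio3, named after their values were seen, were listed at 0 in every sample. Of 19 genes known to respond to thyroid hormone in other tissues, 16 were tested, with 2 risen and 1 fallen (median log2 fold 0.14). Dbp rose from 92.4 ± 31.5 to 744 ± 160 (log2 fold 3.03, adjusted p = 3.9e-06). It is best known as an output gene of the circadian clock. Me1, which makes NADPH, rose from 383 ± 75 to 600 ± 127 (adjusted p = 0.0389), and the semaphorin Sema3c fell from 43589 ± 2520 to 32194 ± 4788 (adjusted p = 0.0193).

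In prostaglandin metabolism, where Slco2a1 takes part in clearance, 18 of 26 genes were tested, with 2 risen and 1 fallen (median log2 fold 0.22). The carbonyl reductase Cbr3 rose from 217 ± 27.3 to 480.3 ± 50.3 (log2 fold 1.15, adjusted p = 0.000416). Ptges, which makes prostaglandin E2, fell from 1411 ± 146 to 849 ± 87.9 (log2 fold -0.73, adjusted p = 0.000947). Pla2g4a, the phospholipase that frees arachidonic acid, rose from 2074 ± 470 to 3290 ± 781 (log2 fold 0.66, adjusted p = 0.03). The groups did not overlap for Cbr3 and Ptges, and they did for Pla2g4a.

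The list of efflux pumps showed changes in both directions, with 2 risen and 1 fallen of 7 tested (median log2 fold -0.06). Abcc6 fell from 2722 ± 498 to 1333 ± 384 (adjusted p = 0.00261), while Abcc1 rose from 527 ± 131 to 937 ± 182 (adjusted p = 0.0107) and Abcb1b from 56.5 ± 14.3 to 138 ± 55.8 (adjusted p = 0.0285). Of 10 xenobiotic receptors and partners tested, 0 rose and 1 fell (median log2 fold -0.04), namely the glucocorticoid receptor Nr3c1, from 11615 ± 548 to 9471 ± 777 (adjusted p = 0.0378, edgeR adjusted p = 0.0527). Of 10 carriers and enzymes that set the gradients used by anion exchangers, 0 rose and 1 fell (median log2 fold 0.02), the glutamate carrier Slc1a1, from 19392 ± 2432 to 11272 ± 3695 (adjusted p = 0.0136).

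Several of the calls in these lists lay close to the threshold. Leaving out single samples in turn ended the call of Slc22a17 in 9 of 12 cases and of Nr3c1 in 8, that of Rxra, Me1 and Pla2g4a in 7 each, of Abcb1b in 6 and of Slc22a18 in 4, with adjusted p up to 0.0921. Sema3c lost its call without young 4 (adjusted p = 0.0517). Without young 4 the calls of the other 7 were lost as well. The calls of Slc7a8, Slc22a5, Dbp, Cbr3, Ptges, Abcc6, Abcc1 and Slc1a1 were kept in 12 of 12 cases. With the astrocyte score as covariate, however, Slc22a5, Slc7a8, Abcc6, Abcc1 and Slc1a1 did not pass (adjusted p = 0.181, 0.0689, 0.071, 0.063 and 0.112). The mural score ended the calls of Slc22a5, Slc7a8 and Slc1a1 (adjusted p = 0.213, 0.0765 and 0.116), and endothelial scaling that of Slc22a5 (log2 fold -0.32, adjusted p = 0.103).

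**Figure D5:**
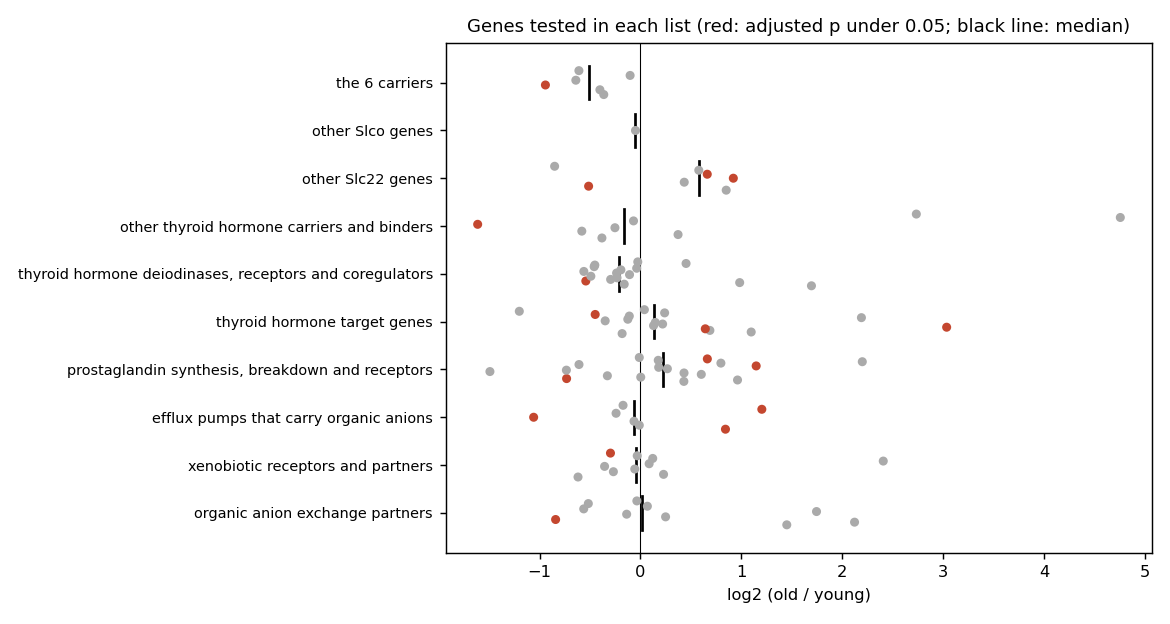
Log2 difference of old against young (horizontal axis) for each tested gene of the 6 carriers and of 9 lists, red where limma adjusted p was under 0.05, with the median of each list as a black line. All 6 carriers lie below 0 (Slc22a8 turned above 0 under quantile normalization and endothelial scaling, Slco3a1 with the mural score) and only Slco2b1 among them is red, while the lists of targets, prostaglandin genes and efflux pumps have red points on both sides of 0.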

How the data were processed

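RNA of sorted brain endothelial cells was sequenced from SMART-seq v4 cDNA with Nextera XT libraries, per the labels' protocols. Per the submitters' processing notes the tools were STAR 2.4.2a, FastQC 0.11.2, R 3.2.2 and Cuffdiff 2.2.1, with build mm9; for the counting step and annotation nothing is stated there. The deposited values are normalized counts, a signal in which the authors' whole reads are divided by 1 size factor per sample: 100% of values came out as whole reads within 0.001, and 12 of 12 factors equal the median of ratios. The count of reads was recovered from these steps. The main test was limma 3.58.1 with a mean-variance trend (R 4.3.3) on log2(value + 1), for the 12777 genes with a mean of at least 10. Folds are on that scale, and for low genes they can be larger or smaller than in edgeR. Ttr had 4.75 against 2.51 in edgeR, and Slco3a1 -0.61 against -0.71. Adjusted p-values are Benjamini-Hochberg values, called under 0.05. edgeR 4.0.16 called 761 of 12580 genes and DESeq2 1.42.0 called 1408 of 13755 on the recovered reads; limma called 887. The limma step was checked on simulated data. Named genes were the members, the other Slco genes, up to 3 genes of each list by p, and the 3 genes most like each member. Members and lists were chosen with earlier results of these data known. Lengths, GC and shared stretches come from GENCODE M21 and promoters from RefSeq, both of another build than mm9. Samples of an age differed by more than sampling noise. PCR copies cannot be told from molecules, so counting precision is not given.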

Additional observations from a re-analysis of the deposited data

Results flagged for a closer look

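Of 46 groups of 6 samples examined, 4 held a sample far from the others by Dixon's criterion, which chance alone meets in about 1 of 20 groups. Slco1c1 was 143052 normalized counts in young 9, against 108418 in the next sample, and Slco1a4 was 189657 in the same sample, against 141471. Slc22a17 stood apart in young 9 as well, at 761 against 425. Slco3a1 was 188 in old 3, against 116 in the next old sample. Young 9 also has the lowest GC slope of the young samples (-0.17), and its part in these values was not tested.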

How the results depend on the processing

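Slco2b1 kept its call in 33 of 34 settings (log2 folds from -1.05 to -0.75) and lost it with the mural marker score as a covariate (-0.85, adjusted p = 0.0568); the cause was not tested. Slco1c1 passed with array weights (-0.42), with a term for old 7, old 9 and young 9 (-0.42) and by exact permutation alone (-0.36, unadjusted p = 0.0216). It was smallest with endothelial scaling (-0.17) and quantile normalization (-0.20). Slco1a4 passed with array weights (-0.43), DESeq2 (-0.41), that term (-0.46) and exact permutation (-0.40, unadjusted p = 0.00866), and Slco2a1 by exact permutation (-0.64, unadjusted p = 0.0325). Slc22a8 reversed under quantile normalization (0.010), endothelial scaling (0.090) and without young 9 and old 2 (0.0079, chosen after seeing the data), and Slco3a1 with the mural score (0.10). Slco1a5 reversed with endothelial scaling (0.13), edgeR (0.18), DESeq2 (0.17) and the microglial score (0.0055), and lay between -0.35 and 0.27 when single samples were left out. The causes were not tested.

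Of all genes, 887 were called and 410 of these were lower. The counts were 1380 with array weights, 1408 (661 lower) with DESeq2, 282 (116 lower) with the astrocyte score and 247 (79 lower) with the mural score. Leaving out single samples gave 554 to 1227 (244 to 529 lower), lowest without young 4. Endothelial scaling left 194 lower, 16.3% of those called against 46.2%.

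The ages share sample numbers 1, 2, 3, 4 and 9. Deviations of samples with the same number correlated between -0.16 and 0.10, and none correlated best with its own number. The labels do not say whether samples with the same number shared a batch, and so few correlations cannot decide it. With the replicate block over these 10 samples 610 genes were called, against 472 (211 lower) in the same samples unblocked, and Slco2b1 was -0.79 (adjusted p = 0.00321); the block changed no call of a member.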
